A study of Mus musculus with 8 samples.

Results

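The mouse mitochondrial genome carries its own protein-coding genes, and 9 of them were chosen here by symbol: mt-Nd1, mt-Nd2, mt-Nd4 and mt-Nd5 of complex I, mt-Cytb of complex III, mt-Co1, mt-Co2 and mt-Co3 of complex IV, and mt-Atp6 of the ATP synthase. Of these 9 genes, 8 had a row among the 27923 genes of the count tables, and mt-Atp6 was not analysed here. In barcodes with at least 200 genes, the 8 genes with a row held 50088 of 9666493 unique molecular identifiers (UMIs, tags that mark single captured RNA molecules), or 0.518%. The share of UMIs in these transcripts is called the member share below, and it was followed by library, by marker-defined class and in the barcodes where mitochondrial RNA took over 20% of UMIs.

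The libraries came from lung tumors of 2 chimeric mice, 1 male and 1 female, with 1 tumor each. The mice carried p53 fl/fl in embryonic stem cell-derived tissue, and adenovirus with Cre recombinase under the SPC promoter, which is active in alveolar type II cells, was given into the airway at 12 weeks of age, 16 weeks before dissection. Live tumor slices were stained with calcein NVOC, a caged dye that fluoresces after light, and the Healthy/Tumor Border was lit before the tissue was dissociated and sorted. For each tumor, 1 Seq-Well library of sorted border cells (below, border) and 3 arrays of cells from the Whole Tumor (below, whole) were sequenced. All groups thus share genotype and Cre delivery, the 3 arrays are technical replicates of 1 mouse, and each border has 1 library with no replicate. The study describes the whole cells as not photoactivated. Lighting and sorting on the uncaged dye go with border position, so their effects cannot be told apart from it.

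Mitochondrial DNA is transcribed as long RNAs from both strands that are cut into mRNAs, transfer RNAs and the ribosomal RNAs mt-Rnr1 and mt-Rnr2. The mRNAs encode core subunits of the respiratory chain, which are inserted into the inner membrane beside many nuclear-encoded subunits. Complex I takes electrons from NADH, complex III passes them to cytochrome c and complex IV passes them to oxygen. In single-cell libraries the mitochondrial share is also a common filter, because cells with a broken plasma membrane lose cytoplasmic RNA and keep more of the RNA inside mitochondria.

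Nuclear DNA holds copies of mitochondrial genes, and the copies bear on which members can be counted. Each member was cut into all its windows of 50 bases, the length of the sequenced cDNA read, and each window was looked up in every other transcript of GENCODE M21 on GRCm38, the assembly also called mm10. The 3′ ends below are shown because they are where most tags of a poly(A)-primed library are expected. They are given 5′ to 3′ on the strand of the gene, as GENCODE M21 has them, and capitals mark the base that differs between mt-Co1 and Gm13340. The closest copy of mt-Co2 is the pseudogene Gm28661, beside Gm13341, which shares 224 windows. The copy of mt-Co3 is Gm28437, and mt-Co1 has Gm29216, which aligns with its bases 1054 to 1545, and Gm13340, which spans the whole gene, all on the minus strand of a nuclear chromosome, and the mitochondrial genes are on the plus strand.
mt-Co2 (chrM:7634-7693): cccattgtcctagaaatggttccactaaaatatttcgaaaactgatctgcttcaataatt
Gm28661 (chr1:24614885-24614944): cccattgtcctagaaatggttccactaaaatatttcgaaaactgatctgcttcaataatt
mt-Co3 (chrM:9330-9389): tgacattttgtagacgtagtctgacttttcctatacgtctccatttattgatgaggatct
Gm28437 (chr1:24613189-24613248): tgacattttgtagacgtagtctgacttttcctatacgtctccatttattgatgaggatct
mt-Co1 (chrM:6813-6872): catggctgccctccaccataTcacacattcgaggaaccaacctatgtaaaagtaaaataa
Gm29216 (chr1:24615706-24615765): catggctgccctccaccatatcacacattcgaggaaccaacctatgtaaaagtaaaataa
Gm13340 (chr2:22588103-22588162): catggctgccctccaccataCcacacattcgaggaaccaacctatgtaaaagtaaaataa
mt-Nd4 (chrM:11485-11544): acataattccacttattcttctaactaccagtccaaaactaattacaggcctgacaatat
mt-Cytb (chrM:15229-15288): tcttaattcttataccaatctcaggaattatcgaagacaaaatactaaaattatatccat

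Of the 8 members with a row, 6 had at least 3874 UMIs each and the other 2 had almost none. mt-Co2 (chrM:7013-7696) had 0 UMIs and mt-Co3 (chrM:8607-9390) had 6 in 3894 barcodes. Gm28661 matched 681 bases of mt-Co2 with 0 mismatches, and Gm28437 matched 783 bases of mt-Co3 with 0 mismatches. All 635 windows of mt-Co2 and 734 of 735 windows of mt-Co3 were found in another transcript. The mRNA genes outside the chosen set with like overlap were as low: mt-Nd3, with 98.0% of windows shared, had 0 UMIs and mt-Nd4l, with 98.8%, had 1 UMI. How reads with several matches were counted is not given in the sources used here, and the part of the copies in these low counts was not tested. A count of 0 for mt-Co2 is not read here as absence of the RNA.

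The remaining 6 members were counted in every library. mt-Co1, the catalytic subunit of complex IV (chrM:5328-6872), had 19130 UMIs, 38.2% of the members' total. Among complex I subunits, mt-Nd1 (chrM:2751-3707) had 8791 UMIs, mt-Nd4 (chrM:10167-11544) 6017, mt-Nd5 (chrM:11742-13565) 5555 and mt-Nd2 (chrM:3914-4951) 3874. mt-Cytb, the only complex III subunit that mitochondrial DNA encodes (chrM:14145-15288), had 6715 UMIs. Each of the 6 lies on the plus strand as a single exon. Per kilobase of gene the level was 12382 UMIs for mt-Co1, 9186 for mt-Nd1, 5870 for mt-Cytb, 4366 for mt-Nd4, 3732 for mt-Nd2 and 3046 for mt-Nd5, an order that assumes counts scale with length, which a 3′ tag need not do. The ribosomal RNAs, which are not members, held more UMIs than all members together, with 219353 in mt-Rnr1 and 457747 in mt-Rnr2.

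Overlap with a nuclear copy did not order the 6 counted genes in the same way. mt-Nd1 and mt-Cytb shared 0 windows with another transcript. mt-Nd5 shared 7.61% and mt-Nd2 8.19%. mt-Nd4 shared 62.2% of its windows, all of them in its first 876 bases, which the pseudogene Gm28439 (chr1:24611535-24612410) repeats with 0 mismatches, and none of its last 300 windows were shared. mt-Co1 shared 51.1% of its windows, with 37 mismatches to Gm13340 over 1545 bases and 6 to Gm29216 over 492 bases, and each of its last 300 windows was found elsewhere although the gene had the most UMIs. The strand used in counting is not given in the sources used here, and the part of these copies in the counts was not tested.

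**Figure D1:**
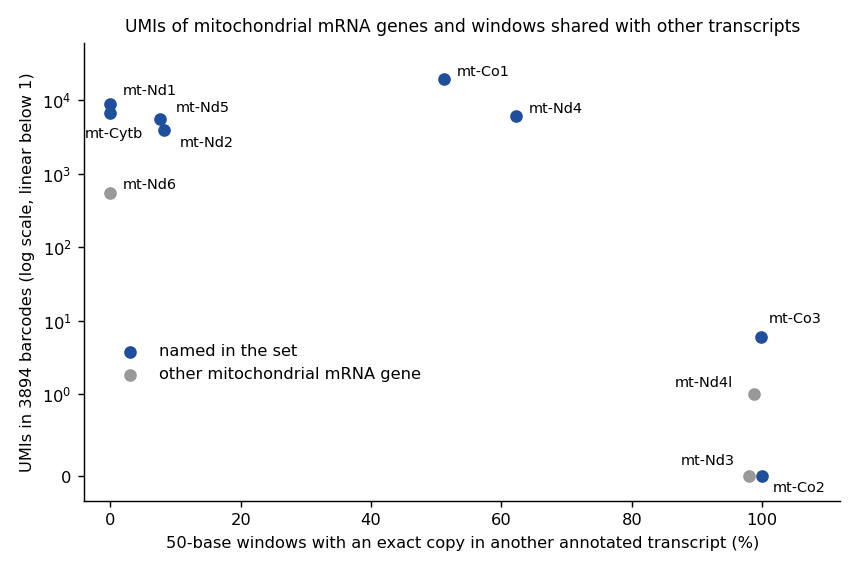
Each point is a mitochondrial mRNA gene, with the percent of its 50-base windows that have an exact copy in another annotated transcript on the x axis and its UMIs in 3894 barcodes on the y axis (log scale, linear below 1). The 4 genes at or above 98.0% have at most 6 UMIs, and mt-Co1 and mt-Nd4, at 51.1% and 62.2%, lie among the genes with at least 3874 UMIs.

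The mix of the 6 counted members was similar from library to library. mt-Co1 made up 34.3% to 44.5% of member UMIs over the 8 libraries, mt-Nd1 15.4% to 21.4%, mt-Cytb 8.35% to 15.1%, mt-Nd4 9.76% to 12.7%, mt-Nd5 8.75% to 12.6% and mt-Nd2 6.16% to 8.38%. No other member exceeded mt-Co1 in any library. The total varied more than the mix.

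Of 4343 deposited barcodes, 449 had fewer than 200 genes and were left out, and the kept barcodes numbered 328 to 620 per library. Median depth was 1654 to 2525.5 UMIs per barcode in 7 libraries and 675.5 in the second whole array of Tumor 2. Of 3848 barcode sequences, 10 occurred in more than 1 library. The cell names inside the tables carried the number of the other tumor in 8 of 8 libraries. Tumors are named here by the sample labels, so a statement on Tumor 1 or Tumor 2 rests on those labels. By label, the border libraries held 686 deposited barcodes in Tumor 1 and 534 in Tumor 2. The study lists the same border counts under the same tumor names. Why the cell names differ was not tested.

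Over all classes the member share was lowest at the Tumor 1 border and highest at the Tumor 2 border. The Tumor 1 border had 0.188%, and its whole arrays had 0.592%, 0.482% and 0.638%. The Tumor 2 border had 0.755%, and its whole arrays had 0.598%, 0.438% and 0.465%. Each border lay outside the range of its tumor's arrays, below it in Tumor 1 and above it in Tumor 2. The whole arrays averaged 0.571% ± 0.0800 (SD, n = 3) in Tumor 1 and 0.500% ± 0.0856 (SD, n = 3) in Tumor 2, and the tumors' arrays overlapped (two-sided exact permutation test, p = 0.3, where 0.1 is the smallest p that 3 against 3 can give). The same direction at the borders was seen without barcodes over 20% mitochondrial RNA: the Tumor 1 border had 0.149% against 0.337% to 0.391%, and the Tumor 2 border 0.702% against 0.372% to 0.539%. Classes made up different parts of these libraries, so each is given next.

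Barcodes were gated by fixed marker lists, each taking the class with the most markers found, and 402 barcodes (10.3%) also held 2 or more markers of another class. The class with most barcodes, 1618, is called neutrophil-like from its list. Csf3r, the G-CSF receptor, was found in 75.5% of its barcodes and S100a9, a calgranulin of neutrophils and monocytes, in 76.8%. Cxcr2 and Retnlg of the same list were found in 36.2% and 17.6%. The gate used this list, so it partly sets these values. Ly6g, the usual mouse neutrophil surface marker, was found in 0.185%, C1qa in 0.556% and Csf1r, the monocyte and macrophage receptor, in 20.4%. The study itself names such cells monocytes or macrophages. It found no separate neutrophil cluster and adds that neutrophils may lie within its monocyte and macrophage clusters.

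In neutrophil-like barcodes of Tumor 1, each of the 6 counted members had a lower level in the border pool than in any of the 3 whole arrays. Levels are given as CPM, the counts of a gene for each 1000000 UMIs of the pool, in the order border, then arrays 1, 2 and 3. For complex I, mt-Nd1 had 354 CPM, then 1001, 546 and 623, and mt-Nd4 had 229 CPM, then 914, 353 and 487. mt-Nd2 had 159 CPM, then 498, 290 and 313. In these 3 genes array 1 was the highest and the border the lowest. mt-Nd5 had 220 CPM, then 859, 377 and 447. For complex III, mt-Cytb had 224 CPM, then 1003, 380 and 444. For complex IV, mt-Co1 had 574 CPM, then 1852, 1032 and 1514. The border was thus below every array for 6 of 6 members, beside 60.9% of all 6403 genes tested in this class, so the same position was common among genes.

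The test across genes did not call these differences. Counts were summed per library, and edgeR's quasi-likelihood test with TMM scaling (which assumes that most genes do not change) gave log2 changes from -0.90 for mt-Cytb to -0.49 for mt-Nd1, with a median over all genes of -0.06. mt-Co1 differed by -0.81 ± 0.38 (SE, edgeR adjusted p = 0.214) and mt-Cytb by -0.90 ± 0.40 (SE, edgeR adjusted p = 0.194). At an adjusted p of 0.05, edgeR called 0 of 6 members and DESeq2 0 of 6, beside 7.86% of all genes by edgeR, and 4 of 6 had an unadjusted edgeR p under 0.05. Without TMM factors 6 of 6 were called lower, with the median of all genes at -0.60, and the members' median stood -0.73 from that median against -0.74 with TMM. Of the ribosomal RNAs of the same organelle, mt-Rnr1 differed by 0.01 ± 0.27 and mt-Rnr2 by 0.15 ± 0.23 (SE, edgeR adjusted p = 0.989 and 0.755) with TMM scaling. In CPM both were below every array at the border as the members were, mt-Rnr1 with 10517 against 17914, 12544 and 14883 and mt-Rnr2 with 27207 against 38705, 29695 and 38080. The border pool held 4 barcodes over 20% mitochondrial RNA of 412, and without such barcodes in any pool the members' changes ranged from -0.66 to -0.38 with 0 of 6 called by edgeR. Array 1, the highest of the Tumor 1 arrays, weighed on the sizes: without it the members' changes ranged from -0.59 to -0.17, with a median of -0.33 in place of -0.80. In that array a single barcode with 4291 UMIs, 70.8% of them mitochondrial, gave 585 of the pool's 2253 member UMIs.

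In neutrophil-like barcodes of Tumor 2, the border did not lie on 1 side for all members. mt-Nd1 had 635 CPM at the border and 408, 261 and 311 in arrays 1, 2 and 3. mt-Cytb had 440 CPM, then 381, 154 and 313, and mt-Nd4 had 404 CPM, then 364, 154 and 273. mt-Nd2 had 227 CPM, then 224, 77.2 and 221, so the border and 2 of the arrays were close. The border was above every array for these 4 members, of 6, beside 48.5% of all genes tested. mt-Co1, with 980 CPM against 1008, 261 and 639, and mt-Nd5, with 263 CPM against 316, 126 and 261, lay inside the range of the arrays. Array 2, the shallow one, was the lowest for all 6.

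No member was called in that comparison. edgeR's log2 changes ran from -0.30 for mt-Nd5 to 0.56 for mt-Nd1, with adjusted p from 0.333 to 0.893. mt-Nd2, above every array in CPM, was at -0.14 ± 0.41 (SE) in this fit. Here 0 of 6 were called by edgeR or by DESeq2, beside 6.23% of all genes by edgeR, with 0 of 6 at an unadjusted edgeR p under 0.05. Without TMM factors 1 of 6 was called higher, with the median of all genes at 0.42. The border effect was then compared between tumors in the same fit: the differences, Tumor 2 minus Tumor 1, ranged from 0.50 to 1.08 on the log2 scale, with a median of 0.98. Without array 1 of Tumor 1 they ranged from 0.04 to 0.77 with a median of 0.48, and without array 2 of Tumor 2 from 0.28 to 0.92 with a median of 0.72. Of the 6 members, 0 were called by edgeR or by DESeq2, beside 8.11% of all genes by edgeR, and 1 (mt-Nd1, 1.05 ± 0.44 SE, edgeR adjusted p = 0.152) had an unadjusted p under 0.05. Without TMM factors 4 of 6 were called, with the median of all genes at 1.00. RNAs retained in the nucleus, read as the sum of 4 long noncoding RNAs, stood at 13832 CPM at the Tumor 1 border against 9380 to 12036 in its arrays and at 19150 CPM at the Tumor 2 border against 10341 to 11895, and their part in the border values was not tested.

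**Figure D2:**
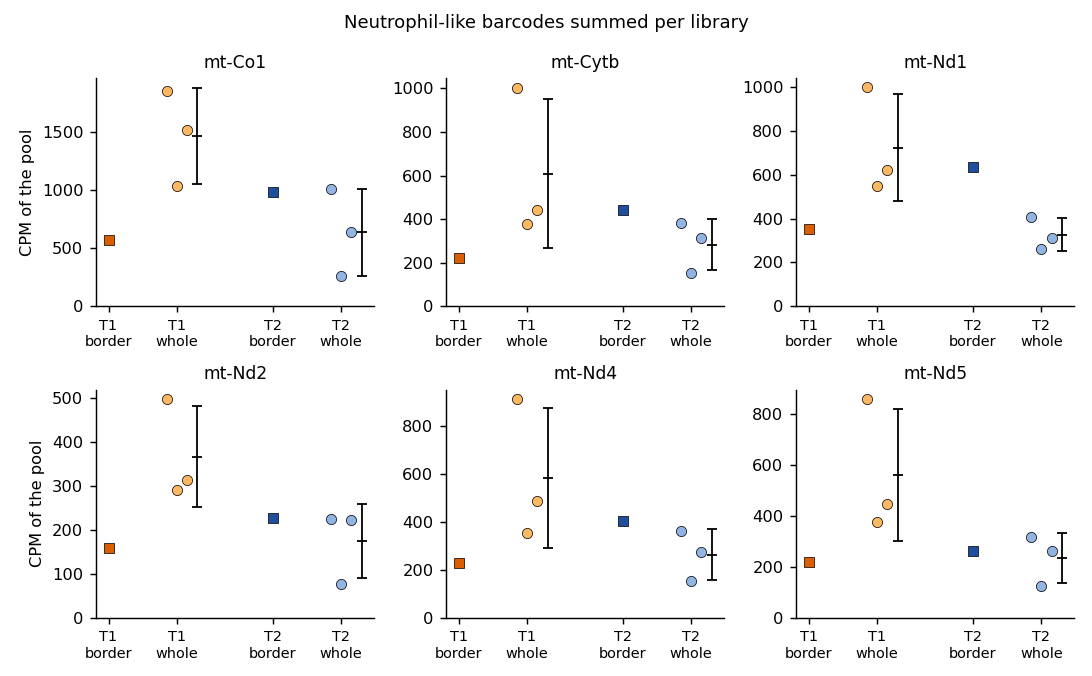
Level of the 6 counted members in neutrophil-like barcodes summed per library, in CPM of the pool, for the border library (square) and 3 whole arrays (circles) of each tumor, with bars for the mean and SD of the arrays. In Tumor 1 the border lies below all arrays in every panel, and in Tumor 2 it lies above all arrays for mt-Cytb, mt-Nd1, mt-Nd2 and mt-Nd4.

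Between tumors, neutrophil-like pools of the whole arrays held more of the member transcripts in Tumor 1, and the number of members called depended on scaling. The member share was 0.431% ± 0.163 (SD, n = 3) in Tumor 1 and 0.192% ± 0.0838 (SD, n = 3) in Tumor 2, and every Tumor 1 array was above every Tumor 2 array (two-sided exact permutation test, p = 0.1, the smallest possible). In CPM, all Tumor 2 arrays were below all Tumor 1 arrays for mt-Co1, mt-Nd1, mt-Nd2 and mt-Nd5, 4 of 6 members, beside 54% of all genes. In edgeR's test 0 of 6 members were called, with log2 changes from -0.40 to -0.16 against a median of all genes of -0.22, beside 39.7% of all genes called in either direction; DESeq2 called 0 of 6, and 0 of 6 had an unadjusted edgeR p under 0.05. Without TMM factors 6 of 6 were called lower in Tumor 2, with the median of all genes at -0.99, and the direction of the 6 members was the same with TMM, without it, with nuclear library sizes and with DESeq2. Other mitochondrial transcripts were called: mt-Nd6, the complex I gene on the minus strand, was lower in Tumor 2 by -1.68 ± 0.62 (SE, edgeR adjusted p = 0.0322), and mt-Rnr1 and mt-Rnr2 were higher by 0.61 ± 0.19 and 0.61 ± 0.16 (SE, edgeR adjusted p = 0.0123 and 0.00411). In unscaled CPM the mt-Rnr2 means of the arrays were 35493 in Tumor 1 and 32337 in Tumor 2, and those of mt-Rnr1 15114 and 13772, so the direction of both was the opposite there. Leaving out array 1 of Tumor 1 turned mt-Cytb to 0.33, mt-Nd2 to 0.14, mt-Nd4 to 0.19 and mt-Nd5 to 0.07, and leaving out array 2 of Tumor 2 turned mt-Nd2 to 0.09.

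Members were counted against all mitochondrial RNAs, which are mostly ribosomal, as well. In neutrophil-like pools, members made up 4.45% of the UMIs of all mitochondrial genes at the Tumor 1 border and 9.74%, 6.58% and 6.74% in its arrays. They made up 6.30% at the Tumor 2 border and 4.56%, 2.37% and 4.89% in its arrays. This ratio does not depend on library scaling, and it placed the border below its arrays in Tumor 1 and above its arrays in Tumor 2.

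C1q+ macrophage-like barcodes, marked by complement C1q genes, had enough barcodes at the Tumor 2 border only. There the member share was 0.856% in 152 barcodes, against 0.681%, 0.581% and 0.456% in arrays 1, 2 and 3. The RNAs retained in the nucleus were above every array there too, with 5187 CPM against 3970, 3405 and 2432, and their part in the member values was not tested. mt-Nd1 had 1945 CPM at the border, then 994, 1191 and 764. mt-Nd2 had 715 CPM, then 352, 405 and 360. The border was above every array for mt-Cytb, mt-Nd1, mt-Nd2 and mt-Nd4, 4 of 6 members, beside 29.1% of all genes tested, while mt-Co1 (3052 CPM against 1906 to 3084) and mt-Nd5 (707 CPM against 404 to 757) lay inside the range. edgeR called 0 of 6 and DESeq2 0 of 6, beside 0.428% of all genes by edgeR; 2 of 6, mt-Nd1 at 0.93 ± 0.39 and mt-Nd2 at 0.88 ± 0.39 (SE, edgeR adjusted p = 0.679 and 0.742), had an unadjusted p under 0.05.

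The lymphoid and dendritic-like classes at the Tumor 2 border showed values of the same size with fewer barcodes. The T or NK-like border pool, with 23 barcodes, had a member share of 1.01%, against 0.808% and 0.621% in its arrays. The B-like border pool, with 44 barcodes, had 0.931%, against 0.798% and 0.770%. The dendritic-like border pool, with 12 barcodes, had 0.833%, against 0.716% and 0.542%. In each class the border was above both arrays that had at least 10 barcodes. So were the RNAs retained in the nucleus, with 9669 CPM against 5633 and 4552 in T or NK-like, 14749 against 7979 and 7637 in B-like and 9119 against 3838 and 3077 in dendritic-like pools, and their part was not tested. edgeR called 0 of 6 members in T or NK-like pools beside 1.31% of all genes (log2 changes 0.12 to 1.15, 1 with an unadjusted p under 0.05), 0 of 6 in B-like pools beside 0.306% (-0.66 to 0.46, 0 with an unadjusted p under 0.05) and 0 of 6 in dendritic-like pools beside 0% (-0.50 to 1.37, 1 with an unadjusted p under 0.05). DESeq2 called 0 of 6 in each.

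In Krt+ tumor-like barcodes, marked by keratins and other epithelial genes, the Tumor 1 border could be compared, with 11 barcodes against 60, 65 and 31. mt-Nd2 had 150 CPM at the border and 269, 522 and 1071 in arrays 1, 2 and 3, a difference of -2.31 ± 0.61 (SE, edgeR adjusted p = 0.0197). It was called as lower, 1 of 6 members, beside 0.539% of all genes called lower. The border was below every array for mt-Nd1, mt-Nd2 and mt-Nd5, 3 of 6 members, beside 30.2% of all genes. All 6 had an unadjusted p under 0.05, with log2 changes from -2.31 to -0.98. The call rested on array 3: without it mt-Nd2 differed by -1.65 (edgeR adjusted p = 0.432), and DESeq2 called 0 of 6. Without array 2, 5 of 6 were called, and without array 1, 3 of 6. Array 3 held a barcode with 10620 UMIs in 419 genes, 91.5% of them mitochondrial, which gave 1349 of the pool's 2064 member UMIs. Other RNAs were lower at this border as well. The RNAs retained in the nucleus stood at 4220 CPM against 6806, 6432 and 5692 in the arrays. On the log2 scale mt-Rnr1 differed by -0.68 and mt-Rnr2 by -0.87. The part of these RNAs in the member values was not tested. Without barcodes over 20% mitochondrial RNA the member share was 0.213% at the border and 0.214%, 0.216% and 0.248% in the arrays, and the border pool then had too few barcodes to be fitted.

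Satellite-rich barcodes are those with no cell class that held at least 2 transcripts of a fixed list of satellite-repeat gene models, and they are not a cell type. Their median depth was 352 UMIs. At the Tumor 1 border, 150 of them had 55 member UMIs in all, a share of 0.0785%, against 0.732%, 0.543% and 0.518% in the arrays. mt-Co1 had 271 CPM at the border, then 2466, 1409 and 1462, and mt-Nd1 had 99.9 CPM, then 1057, 966 and 963. The border was below every array for 6 of 6 members, beside 22% of all genes tested. The log2 changes ran from -3.20 to -2.61, 6 of 6 with an unadjusted p under 0.05, yet edgeR called 0 of 6 (adjusted p from 0.181 to 0.401) and DESeq2 0 of 6, beside 0.0774% of all genes by edgeR. Without array 2 of Tumor 1 edgeR called 6 of 6 as lower. In Tumor 2 the border share was 0.530% and the arrays had 0.778% and 0.880%, and edgeR and DESeq2 each called 0 of 6 (-1.09 to -0.58, 0 with an unadjusted p under 0.05), beside 0% of all genes by edgeR.

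**Figure D3:**
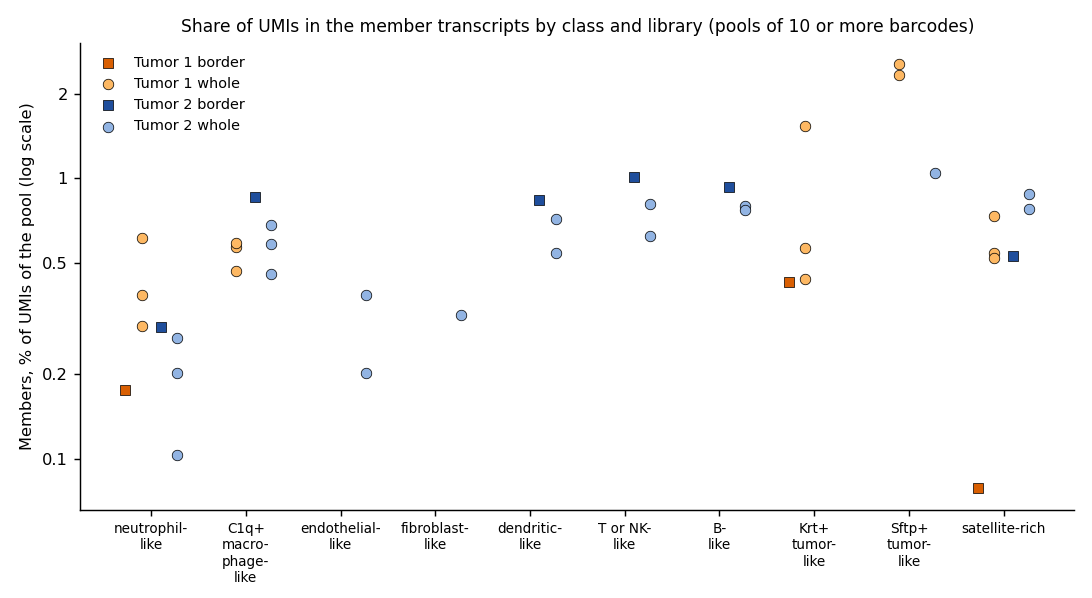
Share of each pool's UMIs in the member transcripts (y axis, log scale) by class, for border libraries (squares) and whole arrays (circles) of Tumor 1 and Tumor 2, where a pool has at least 10 barcodes. The neutrophil-like and satellite-rich border pools of Tumor 1 lie below their arrays, and the Tumor 2 border pools of C1q+ macrophage-like, dendritic-like, T or NK-like and B-like barcodes lie above theirs.

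Classes were then set side by side. Over whole arrays the member share averaged 0.311% ± 0.175 (SD, n = 6 arrays) in neutrophil-like pools and 0.557% ± 0.0843 (SD, n = 6) in C1q+ macrophage-like pools. It averaged 0.846% ± 0.601 (SD, n = 3) in Krt+ tumor-like pools and 1.98% ± 0.815 (SD, n = 3) in Sftp+ tumor-like pools, which are marked by surfactant genes. The Krt+ arrays were 0.439%, 0.563% and 1.54%, all of Tumor 1, so their mean lay above 2 of the 3 values and they overlapped with the C1q+ arrays (0.456% to 0.681%). Neutrophil-like pools of the same Tumor 1 arrays had 0.613%, 0.298% and 0.383%, so in array 1 the Krt+ share was the lower of the pair. The Sftp+ pools had 2.33% and 2.55% in Tumor 1 and 1.04% in Tumor 2, with 10, 14 and 11 barcodes. In the pool with 14 barcodes a single barcode gave 762 of the 1636 member UMIs. The lymphoid classes had at most 2 eligible arrays: B-like pools had 0.770% and 0.798%, and T or NK-like pools 0.621% and 0.808%.

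Against neutrophil-like pools of the same arrays, with the array as a block, edgeR called members as higher in the following classes. In Sftp+ tumor-like pools 6 of 6 were higher, by 2.22 (mt-Nd1) to 3.17 (mt-Cytb) on the log2 scale, beside 12.7% of all genes called higher. mt-Cytb had 5341 and 5682 CPM in Tumor 1 and 1883 CPM in Tumor 2 there (3.17 ± 0.44 SE, edgeR adjusted p = 5.91e-07). In Krt+ tumor-like pools 5 of 6 were higher, by up to 1.90 for mt-Co1 (± 0.46 SE, edgeR adjusted p = 0.000711), beside 25.9%, and mt-Nd5 was not called (0.90 ± 0.46 SE, edgeR adjusted p = 0.0964). In CPM each counted member was above its neutrophil-like level in arrays 2 and 3 of Tumor 1. In array 1 each was below that level, with mt-Co1 at 1784 CPM against 1852 and mt-Cytb at 569 CPM against 1003. A single barcode of that neutrophil-like pool gave 585 of its 2253 member UMIs, 172 of them mt-Co1 and 102 mt-Cytb. The comparison without this barcode alone was not made. In satellite-rich pools 6 of 6 were higher, by 1.13 to 1.58, beside 19.7%. In C1q+ macrophage-like pools 1 of 6 was higher, mt-Co1 by 1.20 ± 0.38 (SE, edgeR adjusted p = 0.0116), beside 19.5%, with 3 of 6 at an unadjusted p under 0.05. Other classes were fitted once those with 2 pools and the Tumor 2 border pools were added, a choice made after seeing the data. There B-like pools had 2 of 6 higher, mt-Co1 and mt-Nd5, beside 11.2% of all genes (log2 changes 0.45 to 1.20), and dendritic-like pools 1 of 6, mt-Co1, beside 9.44% (-0.04 to 1.10). T or NK-like pools had 0 of 6, beside 10.3% (0.48 to 1.04, 2 at an unadjusted edgeR p under 0.05), and endothelial-like pools 0 of 6, beside 10% (-0.94 to -0.03, 0 at an unadjusted edgeR p under 0.05).

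These calls changed with the barcodes and arrays used. Without barcodes over 20%, 0 of 6 members were called in Krt+ tumor-like pools, with log2 changes from -0.20 to 0.30. In the same class 2 of 6 were called with at least 500 genes per barcode (0.20 to 1.09), 1 of 6 without a filter on low counts and 3 of 6 without TMM factors. In satellite-rich pools 1 of 6 was called without barcodes over 20%, with changes from 0.53 to 1.13, 0 of 6 with at least 500 genes per barcode (-0.08 to 0.69) and 0 of 6 without a filter on low counts (-0.20 to 0.28). Their member share in whole arrays was 0.178% in the 108 shallowest barcodes (210 to 287 UMIs) and 0.932% in the 108 deepest (515 to 5512 UMIs), and the part of depth in these values was not tested. In C1q+ macrophage-like pools the calls without barcodes over 20% went the other way, from 1 to 5 of 6, with changes from 0.56 to 1.38. The single call there was lost without array 2 of Tumor 2 (mt-Co1 0.73, edgeR adjusted p = 0.162), and 6 of 6 were called without array 1 of Tumor 1. In Sftp+ tumor-like pools 6 of 6 were called without a filter on low counts, with smaller changes of 1.33 to 2.28. Without the barcode over 20% by members alone, 6 of 6 were called, with changes of 1.78 to 2.76. These pools were too few to be fitted without barcodes over 20% of all mitochondrial genes. Their member share in the remaining barcodes was 0.942%, 0.621% and 0.961%, above the 0.103% to 0.352% of neutrophil-like arrays counted in the same way.

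**Figure D4:**
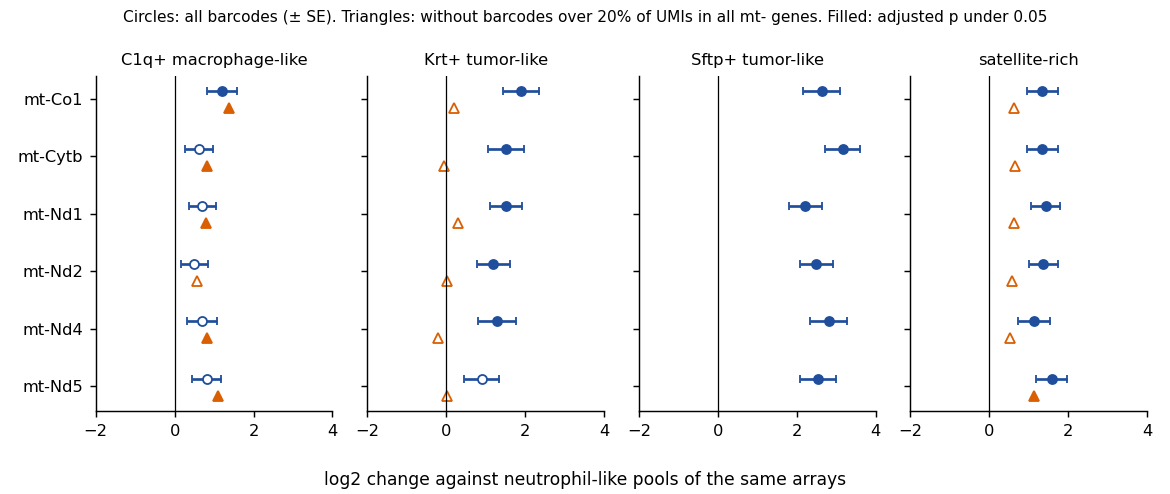
log2 change of each counted member in a class against neutrophil-like pools of the same whole arrays, as circles with SE for all barcodes and as triangles without barcodes over 20% of UMIs in all mitochondrial genes, filled where edgeR's adjusted p is under 0.05. The Krt+ tumor-like triangles lie between -0.20 and 0.30, and the C1q+ macrophage-like triangles lie between 0.56 and 1.38.

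Barcodes over 20% were then taken apart. By the counted members alone, 1 of 3894 barcodes passed 20%. It was Sftp+ tumor-like, in array 2 of Tumor 1, with 762 member UMIs of 3300 (23.1%) in 352 genes, and the next highest barcode had 13.6%. The members took over 1% of UMIs in 511 barcodes, over 5% in 23 and over 10% in 4. With the ribosomal RNAs and the other mitochondrial genes included, 255 barcodes passed 20% (6.55%, exact binomial 95% interval 5.79 to 7.37, which covers counting error only). The 3 barcodes just over this limit had 20.02% to 20.09% and the 3 nearest at or under it 19.88% to 20%.

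These 255 barcodes held 27.1% of all member UMIs. The member share was 2.36% in them and 0.402% in the rest, a difference that the choice of these barcodes partly sets, since the members are among the mitochondrial genes summed. Their median depth was 1828 UMIs and that of the rest 1876, but by class it lay on either side, with 725 against 338 in satellite-rich, 2099 against 1270 in Sftp+ tumor-like and 2348 against 2990 in Krt+ tumor-like barcodes. Over all classes, nuclear retained RNAs stood at 17268 CPM against 7914 CPM. They were 9 of 620 barcodes at the Tumor 1 border (1.45%) and 38 of 506 at the Tumor 2 border (7.51%). In whole arrays they were 9.56% ± 1.52 (SD, n = 3) of barcodes in Tumor 1 and 5.47% ± 2.18 (SD, n = 3) in Tumor 2, with no overlap (two-sided exact permutation test, p = 0.1, the smallest possible).

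Pooled over libraries, tumor-like classes had the highest shares of such barcodes. They were 17 of 60 Sftp+ tumor-like barcodes (28.3%, 95% interval 17.5 to 41.4) and 45 of 185 Krt+ tumor-like barcodes (24.3%, 18.3 to 31.2), and they held 69.0% and 70.3% of the member UMIs of these classes. In neutrophil-like barcodes they were 34 of 1618 (2.10%, 1.46 to 2.92) and held 22.4% of member UMIs. In satellite-rich barcodes they were 48 of 671 (7.15%, 5.32 to 9.37) and held 52.7%. No endothelial-like barcode of 48 passed the limit (95% upper bound 7.40%). The order differed in array 1 of Tumor 2, where the Sftp+ tumor-like pool had 9.09%, between neutrophil-like (6.03%) and satellite-rich pools (13.2%). Without barcodes over 20% the pooled member share was 0.260% in Krt+ tumor-like and 0.223% in neutrophil-like barcodes, and 0.884% in Sftp+ tumor-like, 0.826% in B-like and 0.636% in C1q+ macrophage-like barcodes. These values pool all libraries, and the order of the first pair turned within arrays. In arrays 1, 2 and 3 of Tumor 1 the Krt+ tumor-like share was 0.214%, 0.216% and 0.248%. The neutrophil-like share there was 0.352%, 0.263% and 0.350%.

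**Figure D5:**
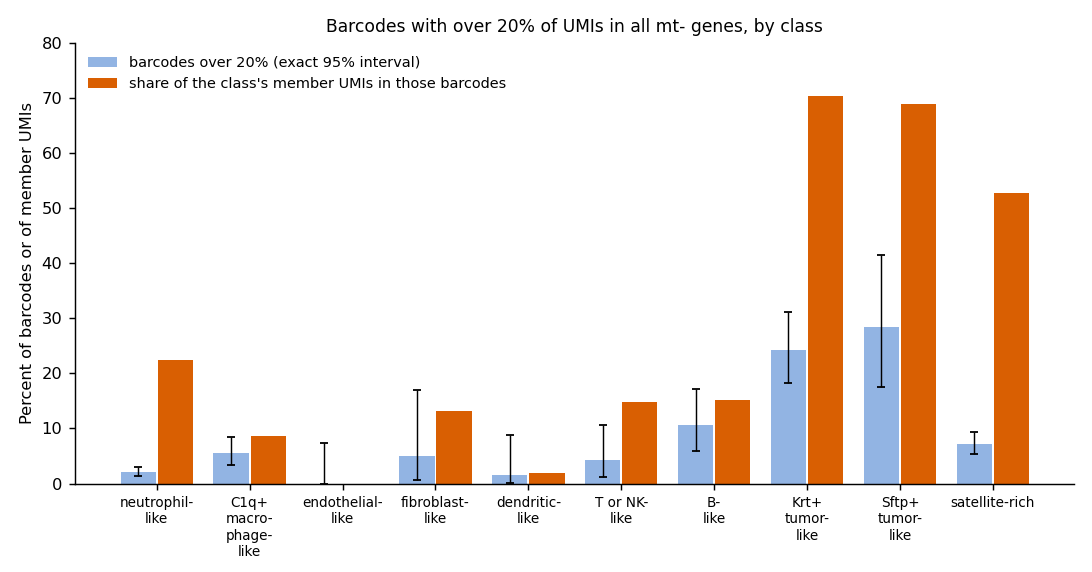
For each class, pooled over libraries, blue bars give the percent of barcodes with over 20% of UMIs in all mitochondrial genes, with exact 95% intervals, and orange bars give the percent of the class's member UMIs that those barcodes hold. Krt+ and Sftp+ tumor-like classes have the highest bars of both kinds, at 24.3% and 28.3% of barcodes and 70.3% and 69.0% of member UMIs.

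Detection of members per barcode was compared at equal depth. After each barcode was thinned to 500 UMIs, leaving out shallower ones, 41.9% of 1508 neutrophil-like barcodes (110 left out) had a member UMI, against 64.6% unthinned. The thinned share was 56.7% in Krt+ tumor-like, 86.9% in C1q+ macrophage-like and 94.5% in B-like barcodes, against 69.7%, 96.9% and 97.7% unthinned. By library it was 35.1% at the Tumor 1 border (138 of 620 left out) and 59.7% to 68.4% in its arrays, and 78.1% at the Tumor 2 border (76 of 506 left out) and 60.5% to 68.0% in its arrays. Every cell class of the study is expected to hold mitochondria, so no class served as a background without these RNAs.

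Across the 52 class-by-library pools with at least 10 barcodes, members varied together. Spearman's rho between the CPM of 2 members was 0.753 to 0.918 over 15 pairs, as a description, since pools share libraries, depth and barcodes of high mitochondrial share. Among 3418 genes with a mean of at least 50 CPM, those with the pattern most like the members' sum were mt-Rnr2 (rho = 0.846), mt-Rnr1 (0.825) and mt-Nd6 (0.676), followed by Prrc2b (0.625) and Nemf (0.619). The sum of 74 nuclear genes for respiratory chain subunits had a rho of 0.435 with the members, that of 23 genes for mitochondrial transcription and RNA handling 0.355, and that of nuclear retained RNAs -0.06.

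Nuclear-encoded subunits of the same complexes were compared from a fixed list of 75 symbols, 74 of them in the tables. In neutrophil-like pools 64 were tested. At the Tumor 1 border 0 were higher and 1 was lower (Uqcrc1, a complex III core protein), beside 422 higher and 81 lower of all 6403 genes, with a median of -0.54, beside the members' median of -0.80. At the Tumor 2 border 1 was higher (Atp5g3, of the ATP synthase) and 0 were lower, beside 137 higher and 262 lower of all genes, with medians of 0.27 for the list and 0.17 for the members. Between the whole arrays 0 were higher and 22 lower in Tumor 2, beside 18.7% of all 6403 genes called lower, with a median of -0.91 for the list and -0.34 for the members. Their summed level was 6074, 5524 and 5545 CPM in the Tumor 1 arrays and 2183, 1468 and 2201 CPM in the Tumor 2 arrays, with no overlap, a position held by 54% of all genes.

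The same list was read between classes. Of 48 nuclear subunits tested against neutrophil-like pools, 37 were higher in Krt+ tumor-like pools, beside 25.9% of all genes, with a median log2 change of 1.42. The members' median there was 1.39, and 0.01 without barcodes over 20% mitochondrial RNA, a setting in which the list was not read. In Sftp+ tumor-like pools 1 of 48 was higher (Atp5h), beside 12.7%, with a median of 0.24, where 6 of 6 members were higher with a median of 2.58. In satellite-rich pools 0 were higher, beside 19.7%, and 2 lower, beside 663 of all 4476 genes, with a median of -0.38 beside the members' 1.36. In C1q+ macrophage-like pools 9 of 48 were higher, near the 19.5% of all genes, with a median of 0.38 beside 0.70. The genes for mitochondrial transcription and RNA handling were mostly too low to test, with 8 tested in neutrophil-like pools, of which 2, Mtpap and Trmt10c, were lower in Tumor 2 arrays, beside 18.7% of all genes.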

How the data were processed

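The authors made UMI count tables per array with the Drop-seq protocol, and the submitters' processing notes name bcl2fastq 2.17.1.14, STAR 2.5.2b and mm10. The deposited values are raw counts, and depth was 328 to 620 kept barcodes and 374369 to 2019162 UMIs per library. Members and gene lists were chosen with earlier results of these data known. Barcodes with at least 200 genes took the class with most markers (at least 2, more than any other class), and doublets were not called. The rule for named genes took all members, the other mitochondrial genes and the 5 genes most like the members; class markers and called genes of the lists were named after their values were seen. Counts were summed per class and library (at least 10 barcodes) and tested with edgeR 4.0.16 (filterByExpr, TMM, quasi-likelihood, Benjamini-Hochberg over all genes, threshold 0.05), with DESeq2 1.42.0 as an alternative. The test was checked on simulated data. The p-values measure the spread between technical arrays. Exact permutation tests and intervals used scipy 1.17.1. Windows of 50 bases came from GENCODE M21. An allele of the mice and a gated class that stayed in the fits are not reported here.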

Additional observations from a re-analysis of the deposited data

Results flagged for a closer look

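The member share of UMIs at the border lay on opposite sides of the whole arrays in the 2 tumors. Over all classes the border minus the mean of the whole arrays was -0.383 percentage points in Tumor 1, below each of 3 arrays, and 0.255 percentage points in Tumor 2, above each of 3 arrays. In neutrophil-like barcodes the same differences were -0.255 and 0.103 percentage points, -0.164 without array 1 of Tumor 1 and 0.0589 without array 2 of Tumor 2. The difference between tumors was 0.638 percentage points over all classes and 0.358 in neutrophil-like barcodes, given with no test: the pattern was seen first, and with 1 border library in each tumor an exact permutation of that label gives no p under 0.0625. With all barcodes, satellite-rich pools did not share the pattern, with the border below its arrays in both tumors (0.0785% against 0.518% to 0.732% in Tumor 1, and 0.530% against 0.778% and 0.880% in Tumor 2). In Tumor 2 the size of this difference depended on the barcodes used. Without barcodes over 20% the satellite-rich border was still below both arrays, with 0.279% against 0.569% and 0.283%. With at least 500 genes the log2 changes of its members ran from -0.10 to 0.43, with a median of 0.28. For the single members in neutrophil-like pools, edgeR's interaction test called 0 of 6, beside 8.11% of all genes, with 1 of 6 at an unadjusted p under 0.05 and 0 of 6 called by DESeq2.

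The barcodes left out for having fewer than 200 genes held 830 member UMIs of 126612, a share of 0.656%, beside 0.518% in the barcodes that were kept. No control library without cells was analysed here.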

How the results depend on the processing

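Depth was limited by 1 border library per tumor and by pools of as few as 10 barcodes, and intervals cover counting error only. Over the log2 changes of single members, 692 values kept direction and side of the threshold under other settings, 33 newly passed it, 28 no longer did and 15 changed sign; with 1 array left out these numbers were 432, 20, 6 and 10. Both tallies count fits that repeat the main values. In B-like pools, for example, leaving out a Tumor 1 array, or barcodes over 20% by members, removed nothing. The kept values are therefore no measure of stability. Settings added after seeing the data left out barcodes over 20% of all mitochondrial genes, or added classes with 2 pools and the Tumor 2 border pools. For shifts in calls below, the cause was not tested.

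Without TMM factors edgeR called 6 of 6 members at the neutrophil-like Tumor 1 border, 1 at the Tumor 2 border, 4 in the difference of the border effects and 6 between whole arrays, against 0 in each with TMM; with at least 3 markers 1 was called in the difference. Leaving out each array gave 0 in the border comparisons and their difference, and 0 to 1 between whole arrays (1 without array 1 of Tumor 2). Array numbers are shared between tumors, but deviations of same-numbered arrays correlated at 0.0088, 0.032 and -0.0032 over 4959 genes and array 1 of Tumor 1 did not correlate best with its own number; a replicate block gave 1 of 6 called between whole arrays.

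In other classes 1 of 42 border values was called. The count was 0 of 42 with DESeq2. With each array left out it was 0 to 11 (3, 11 and 0 without arrays 1, 2 and 3 of Tumor 1). It was 0 of 30 without barcodes over 20%, 0 of 36 with at least 500 genes and 0 of 24 with at least 3 markers. It was also 0 of 30 without barcodes that hold 2 markers of another class. These last 4 settings had fewer pools. The called comparison, the Krt+ tumor-like Tumor 1 border, was not tested in them, so their counts of 0 do not bear on that call. Against neutrophil-like pools 18 of 24 values were called, 8 without a filter on low counts, 6 of 18 without barcodes over 20%, 3 of 18 with at least 500 genes, and 8 to 17 with each array left out (8 of 12 without array 2 of Tumor 1, where fewer classes were left).

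The member share at the border minus whole was -0.383 percentage points in Tumor 1 and 0.255 in Tumor 2; with all mitochondrial genes it was -4.10 and 0.872, and without barcodes over 20% it was -0.219 in Tumor 1. With each array left out it was -0.427 to -0.349 and 0.223 to 0.303. Between whole arrays the share differed by -0.0702, by 0.0171 with at least 500 genes, by -0.386 with all mitochondrial genes, by 0.0716 without barcodes over 20% and by -0.119 to -0.0366 with each array left out. Barcodes over 20% by members numbered 1, then 0 with at least 500 genes, 255 with all mitochondrial genes and 4 with ribosomal RNA left out of the total.

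Some log2 changes turned sign. Without barcodes over 20%, mt-Cytb and mt-Nd4 in Krt+ tumor-like against neutrophil-like pools were -0.053 and -0.20, and mt-Nd4 in neutrophil-like pools was 0.0099 between whole arrays and -0.013 at the Tumor 2 border. At that border mt-Nd2 was 0.24 without TMM factors and 0.066 with at least 500 genes, and mt-Nd5 was 0.080 without TMM factors and 0.0018 without barcodes that hold 2 markers of another class. With at least 500 genes, satellite-rich pools at the Tumor 2 border gave 0.16 for mt-Cytb, 0.43 for mt-Nd1, 0.40 for mt-Nd4 and 0.42 for mt-Nd5, and against neutrophil-like pools -0.049 for mt-Cytb and -0.080 for mt-Nd4 (-0.20 without a filter). With each array left out, mt-Nd5 at the C1q+ macrophage-like Tumor 2 border was -0.041 to 0.40. Neutrophil-like whole arrays gave -0.53 to 0.33 for mt-Cytb, -0.38 to 0.14 for mt-Nd2, -0.59 to 0.19 for mt-Nd4 and -0.64 to 0.067 for mt-Nd5, and the neutrophil-like Tumor 2 border gave -0.13 to 0.61 for mt-Co1, -0.050 to 0.38 for mt-Cytb, -0.38 to 0.086 for mt-Nd2 and -0.040 to 0.40 for mt-Nd4.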
